A study of Homo sapiens with 8 samples.

Results

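The CCAAT-binding factor NF-Y was mapped by CUT&RUN in 2 established rhabdomyosarcoma lines, RH4 and RH30, both positive for the fusion gene PAX3-FOXO1. In this assay an antibody brings a nuclease to the protein, and the DNA fragments it cuts free are sequenced. The regions described here are the NF-Y sites that lie close to the ends of 2 or more protein-coding genes, and 557 of the 3073 entries of the authors' RH4 consensus list met that rule. A consensus entry is the stretch shared by an NFYB peak and an NFYC peak of uninfected RH4 cells. An entry counted as a member when it came within 1000 bp of an end of at least 2 genes. The genes were the 20037 protein-coding ones that RefSeq places on GRCh38.p14, and the files are in hg38. The other entries comprised 1823 that reached a single gene and 693 that reached none.

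RH30 cells carrying an inducible cytosine base editing system received 1 guide RNA each, were selected with blasticidin, given rapamycin to start editing, and collected at day 8 for NFYB CUT&RUN. The guides sgCCAAT2a and sgCCAAT2b were directed at the CCAAT motif of the endogenous PAX3 promoter, and sgCtrl1 and sgCtrl2 were the control guides. Each guide in RH30 and each antibody in RH4 had 1 library, so 6 NF-Y peak lists were set side by side and no spread between replicates could be computed. The 5 libraries titled RH30 carry RH4 as their source name and cell line, and the titles and the design text were followed here. Per the file headers, the libraries held 21.2 M tags with sgCCAAT2a, 28.2 M with sgCCAAT2b, 13.9 M with sgCtrl1 and 10.5 M with sgCtrl2, with 1.22, 1.46, 2.40 and 3.10% of tags in peaks. There were 2451, 2558, 4025 and 6687 peaks in these lists, taken in that order. RH4 cells gave 3243 peaks for NFYB and 3760 for NFYC, from libraries of unknown depth. No list gives peak heights. Intervals below are exact Clopper-Pearson 95% intervals that cover the counting of entries, genes or pairs only.

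In NF-Y, the subunits NFYB and NFYC pair through histone-like folds and NFYA then recognises the pentanucleotide CCAAT, which bends the DNA. The box is a common element of promoters without a TATA box, where it tends to stand a short way upstream of the start and works in either orientation. Many human genes lie head to head, with their starts close together on opposite strands, so that 1 stretch of DNA is upstream of both. Pairs of histone H2A and H2B genes are textbook cases.

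The stretches between the starts of 4 divergent H2A and H2B histone pairs are shown because they share a layout of boxes yet differ in whether a peak was listed. Each is printed 5′ to 3′ on the strand of the second gene named, from up to 20 bases inside the first gene to 20 bases inside the second gene, with every CCAAT, or ATTGG where the box lies on the other strand, in capitals. The sequences are RefSeq's for GRCh38.p14. They lie at chr6:26123907-26124176, minus strand, for H2AC6/H2BC4, at chr1:149886663-149886932, minus strand, for H2AC20/H2BC21, at chr6:27893166-27893435, minus strand, for H2BC17/H2AC17, and at chr6:27814772-27815041, plus strand, for H2AC14/H2BC14.
H2AC6/H2BC4: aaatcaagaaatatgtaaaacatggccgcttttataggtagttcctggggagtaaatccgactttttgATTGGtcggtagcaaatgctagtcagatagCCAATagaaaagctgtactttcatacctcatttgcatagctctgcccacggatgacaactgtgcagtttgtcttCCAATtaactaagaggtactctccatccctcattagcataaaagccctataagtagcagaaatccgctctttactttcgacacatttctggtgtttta
H2AC20/H2BC21: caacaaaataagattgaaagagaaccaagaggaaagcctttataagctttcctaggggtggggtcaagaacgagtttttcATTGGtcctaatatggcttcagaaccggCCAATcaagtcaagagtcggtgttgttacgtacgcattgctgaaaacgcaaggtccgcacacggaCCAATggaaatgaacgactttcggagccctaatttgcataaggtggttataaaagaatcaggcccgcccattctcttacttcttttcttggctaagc
H2BC17/H2AC17: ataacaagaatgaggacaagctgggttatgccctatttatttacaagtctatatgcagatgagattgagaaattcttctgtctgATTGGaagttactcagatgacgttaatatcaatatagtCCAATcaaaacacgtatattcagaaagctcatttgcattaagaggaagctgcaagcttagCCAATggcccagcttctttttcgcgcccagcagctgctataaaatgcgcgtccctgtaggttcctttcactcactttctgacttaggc
H2AC14/H2BC14: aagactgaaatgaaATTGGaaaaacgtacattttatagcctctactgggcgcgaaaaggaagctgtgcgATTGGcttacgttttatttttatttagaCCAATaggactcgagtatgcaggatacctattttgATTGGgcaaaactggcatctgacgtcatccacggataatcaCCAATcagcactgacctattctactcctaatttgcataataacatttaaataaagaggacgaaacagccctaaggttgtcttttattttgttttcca

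In the first 3 of these, 246, 236 and 240 bp separated the starts, and boxes stood 180, 150 and 76 bp upstream of H2BC4, 168, 140 and 75 bp upstream of H2BC21, and 164, 126 and 66 bp upstream of H2AC17. Each order was the same, with ATTGG first and then CCAAT at both other places. A consensus entry and a peak in all 4 RH30 lists lay at each. At H2AC6/H2BC4 the peaks were centred 94 bp upstream of H2BC4 with sgCCAAT2a and 89 bp with sgCCAAT2b, within the run of boxes, but 320 bp with sgCtrl1 and 280 bp with sgCtrl2, beyond the start of H2AC6. The stretch of H2AC14/H2BC14 holds 5 boxes in 245 bp, including the same 3 forms at 179, 151 and 75 bp upstream of H2BC14, and none of the 6 lists had a peak there.

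The next 5 stretches are shown as examples of other divergent pairs with an entry, of which the last 2 pairs had peaks with both control guides and with neither edited guide. They lie at chr19:38930744-38930964, minus strand, for MRPS12/SARS2, at chr22:49918418-49918653, plus strand, for ALG12/CRELD2, at chr3:186570523-186570739, plus strand, for TBCCD1/DNAJB11, at chr2:241686795-241687039, plus strand, for DTYMK/ING5, and at chr6:87589968-87590155, minus strand, for ORC3/RARS2, printed as above.
MRPS12/SARS2: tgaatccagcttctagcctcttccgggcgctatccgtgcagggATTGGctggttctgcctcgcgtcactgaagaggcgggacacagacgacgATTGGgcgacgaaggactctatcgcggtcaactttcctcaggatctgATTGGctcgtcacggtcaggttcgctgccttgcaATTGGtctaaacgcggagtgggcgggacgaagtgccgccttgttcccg
ALG12/CRELD2: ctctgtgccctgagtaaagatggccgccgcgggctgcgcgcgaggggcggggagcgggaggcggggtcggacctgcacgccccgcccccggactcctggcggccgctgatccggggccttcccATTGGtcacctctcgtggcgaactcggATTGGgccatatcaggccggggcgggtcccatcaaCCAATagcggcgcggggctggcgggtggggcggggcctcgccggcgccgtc
TBCCD1/DNAJB11: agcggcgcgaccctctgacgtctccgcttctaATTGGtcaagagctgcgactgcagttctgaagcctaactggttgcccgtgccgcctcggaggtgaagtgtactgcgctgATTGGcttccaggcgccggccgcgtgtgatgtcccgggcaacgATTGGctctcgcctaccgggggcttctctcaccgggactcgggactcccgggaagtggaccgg
DTYMK/ING5: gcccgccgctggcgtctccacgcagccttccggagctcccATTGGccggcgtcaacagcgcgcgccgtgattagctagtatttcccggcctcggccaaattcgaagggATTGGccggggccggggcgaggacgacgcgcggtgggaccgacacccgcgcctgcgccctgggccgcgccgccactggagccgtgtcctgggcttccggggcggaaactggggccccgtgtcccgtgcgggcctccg
ORC3/RARS2: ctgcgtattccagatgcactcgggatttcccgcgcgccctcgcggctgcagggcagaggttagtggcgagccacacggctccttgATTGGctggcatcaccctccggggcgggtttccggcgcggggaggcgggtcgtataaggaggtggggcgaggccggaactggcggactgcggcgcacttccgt

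MRPS12, a mitochondrial ribosomal protein, and SARS2, the mitochondrial seryl-tRNA synthetase, start 181 bp apart with 4 boxes, 156, 107, 60 and 26 bp upstream of SARS2. Their peak centres lay 92 bp upstream of SARS2 with sgCCAAT2a, 106 bp with sgCCAAT2b, 92 bp with sgCtrl1 and 69.5 bp for RH4 NFYB, but at -30 bp with sgCtrl2 and -52.5 bp for RH4 NFYC, where a negative value lies inside SARS2. CRELD2, a secreted protein of the endoplasmic reticulum stress response, and ALG12, a mannosyltransferase of N-glycan assembly, start 196 bp apart with 3 boxes, 91, 64 and 29 bp upstream of CRELD2. The peak centres at ALG12/CRELD2 lay 71 bp upstream of CRELD2 with sgCCAAT2a, 45 bp with sgCCAAT2b, 71 bp with sgCtrl1, 46 bp with sgCtrl2, 80 bp for RH4 NFYB and 93.5 bp for RH4 NFYC, all within the run of boxes or next to it. TBCCD1 and DNAJB11, a chaperone cofactor of the endoplasmic reticulum, start 177 bp apart with boxes 163, 84 and 41 bp upstream of DNAJB11. Here the centres lay 135 bp upstream of DNAJB11 with sgCCAAT2b and 134 bp with sgCtrl2, but beyond the start of TBCCD1 at 214 bp with sgCCAAT2a, 282 bp with sgCtrl1, 196.5 bp for RH4 NFYB and 195 bp for RH4 NFYC. ORC3, a subunit of the origin recognition complex, and RARS2, the mitochondrial arginyl-tRNA synthetase, start 148 bp apart with a single box 81 bp upstream of RARS2. Their peak centres lay 83 bp upstream of RARS2 with sgCtrl1, 93 bp with sgCtrl2, 106 bp for RH4 NFYB and 106.5 bp for RH4 NFYC.

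A final 2 textbook head-to-head pairs without a peak in any of the 6 lists are shown for contrast. HSPD1 and HSPE1 encode the mitochondrial chaperonin and its co-chaperonin, and COL4A1 and COL4A2 encode basement membrane collagens. The stretches lie at chr2:197500254-197500398, plus strand, for HSPD1/HSPE1, and at chr13:110307137-110307303, plus strand, for COL4A1/COL4A2.
HSPD1/HSPE1: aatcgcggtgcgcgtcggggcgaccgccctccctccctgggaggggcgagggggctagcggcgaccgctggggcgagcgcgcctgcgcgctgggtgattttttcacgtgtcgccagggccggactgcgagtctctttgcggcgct
COL4A1/COL4A2: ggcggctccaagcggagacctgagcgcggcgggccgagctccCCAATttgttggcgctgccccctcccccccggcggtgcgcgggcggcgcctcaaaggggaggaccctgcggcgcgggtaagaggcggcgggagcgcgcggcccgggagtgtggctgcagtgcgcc

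The stretch of HSPD1/HSPE1, with 105 bp between the starts, holds 0 boxes, and that of COL4A1/COL4A2, with 127 bp, holds 1 box 103 bp upstream of COL4A2. A match of these letters describes the sequence and does not show a binding site.

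The 557 members stood at 494 different nearest pairs of genes, of which 58 pairs had more than 1 entry, and involved 999 genes. They lay in 503 RH4 NFYB peaks and 556 RH4 NFYC peaks, so that some members share a peak. Most members, 533, reached 2 genes, 24 reached 3, and 0 reached more. In 15 members the pair consisted of a gene and a readthrough gene named after it, which are not separate loci. The name of the set fits 365 members, 65.5% (61.4 to 69.5%), whose centre lay between the 2 ends, while 452 touched the interval between them. At the limit of the rule, the entries at PLIN5/LRG1, TYW1/SBDS and USP5/CDCA3 lay 1000, 993 and 986 bp from the farther gene's end. The nearest entries outside it reached only ZNF718, RASIP1 and ISOC2, in turn, and lay 1002, 1003 and 1006 bp from a second gene's end.

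Strand was known for both genes of 428 members, and their nearest ends were mostly 2 starts. Of these, 334 or 78.0% (73.8 to 81.9%) were head to head, 71 or 16.6% were head to tail on the same strand, 19 were starts of overlapping genes on the same strand, 4 were a start and an end on opposite strands, and 0 were tail to tail. Both nearest ends were starts in 353, 82.5% (78.5 to 86.0%). The median spacing of the ends over all members was 288 bp, with quartiles of 176 and 530 bp and a range of 0 to 1874 bp. Head-to-head members whose genes do not overlap, 268 in all, had a median spacing of 235 bp, and the 66 such head-to-tail members one of 621.5 bp. The rule itself limits the spacing, since both ends must be near the entry.

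To put this against the genome, all pairs of protein-coding genes of known strand with ends within 1000 bp were listed. Of 814 non-overlapping head-to-head pairs, 241 or 29.6% (26.5 to 32.9%) had a consensus entry within the windows of both ends, and with overlapping genes the count was 301 of 1096, 27.5%. The share was 61 of 420, 14.5% (11.3 to 18.3%), for head-to-tail pairs and 1 of 368, 0.272% (0.00688 to 1.50%), for tail-to-tail pairs. The tail-to-tail case, H2AC20/H2AC21, was named after its value was seen, and its entry stands nearer to the start of H2AC21 than to the ends that face each other. A start with no other gene end of known strand within 1000 bp had an entry in 11.2% (10.6 to 11.7%) of 11622 cases, and such a 3′ end in 0.387%. A head-to-head pair offers 2 starts to a peak, so its share cannot be set directly against that of a lone start.

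The order of the arrangements was the same in each of the 6 lists. The share of head-to-head pairs with a peak was 21.6% with sgCCAAT2a, 23.3% with sgCCAAT2b, 28.4% with sgCtrl1, 35.1% with sgCtrl2, 33.2% for RH4 NFYB and 32.4% for RH4 NFYC. For head-to-tail pairs it ran between 9.52 and 15.7%, and for tail-to-tail pairs between 0.272 and 0.815%. No interval of 1 arrangement overlapped that of another within a list.

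Spacing set head-to-head pairs apart from each other. Only 17 of 208 pairs with starts up to 100 bp apart had an entry, 8.17% (4.83 to 12.8%), against 30.4% (24.8 to 36.4%) at 101 to 200 bp, 45.0% (37.3 to 52.8%) at 201 to 300 bp, 37.0% at 301 to 400 bp and 46.7% (33.7 to 60.0%) at 401 to 600 bp. At 601 to 800 and 801 to 1000 bp the shares were 28.6 and 33.3%, with 21 and 18 pairs and wide intervals. The low share at the closest spacing was seen in every list: 4.81, 5.77, 10.6, 16.3, 11.1 and 9.62% of the 208 pairs had a peak with sgCCAAT2a, sgCCAAT2b, sgCtrl1, sgCtrl2, RH4 NFYB and RH4 NFYC, against 31.9, 34.8, 39.0, 45.5, 47.7 and 47.1% of the 310 pairs at 201 to 600 bp. The share of head-to-tail pairs was 17.2% (5.85 to 35.8%) up to 100 bp and 19.3% (11.4 to 29.4%) at 801 to 1000 bp.

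**Figure D1:**
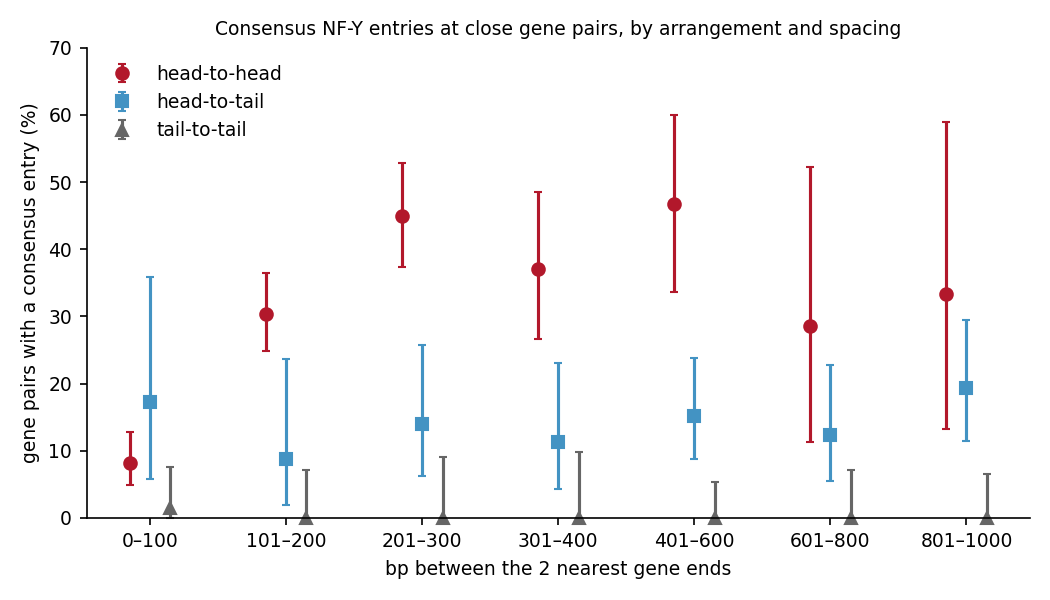
Share of close gene pairs with an RH4 consensus entry in percent (vertical axis) by the bp between their nearest ends (horizontal axis), for non-overlapping head-to-head, head-to-tail and tail-to-tail pairs; bars are exact 95% intervals. Head-to-head pairs go from 8.17% up to 100 bp to 45.0% at 201 to 300 bp, and tail-to-tail pairs stay at 0 beyond 100 bp.

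Members were found at even the shortest spacings, however. BBIP1, a subunit of the ciliary BBSome, and SHOC2, a scaffold of RAS signalling, start 4 bp apart, and the entry of 275 bp was centred 10 bp from the nearer start with a peak in all 6 lists. ATP6V1E1, a subunit of the vacuolar proton pump, and BCL2L13, a BCL2 family member, start 55 bp apart, with the entry centred 25 bp from the nearer start and 80 bp from the other. PRCP, a lysosomal peptidase, and DDIAS start 92 bp apart, with an entry of 121 bp centred 29 bp from the nearer start. In other close pairs the entry lay to the side: at BRCA1 and NBR1, a DNA repair gene and an autophagy receptor whose starts are 82 bp apart, the centre stood 688.5 bp from the nearer start.

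Entries of head-to-head members were centred between the 2 starts in 226 of 334 cases, 67.7% (62.4 to 72.7%). The share was 212 of 268, 79.1% (73.7 to 83.8%), where the genes do not overlap and 14 of 66, 21.2% (12.1 to 33.0%), where they do. The values that follow are for genes that do not overlap. The centre lay a median of 89.5 bp from the nearer start and 186.5 bp from the farther one. With starts up to 200 bp apart, 62.7% of 102 entries were centred between them, against 86.4% of 110 at 201 to 400 bp and 94.6% of 56 at wider spacings.

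**Figure D2:**
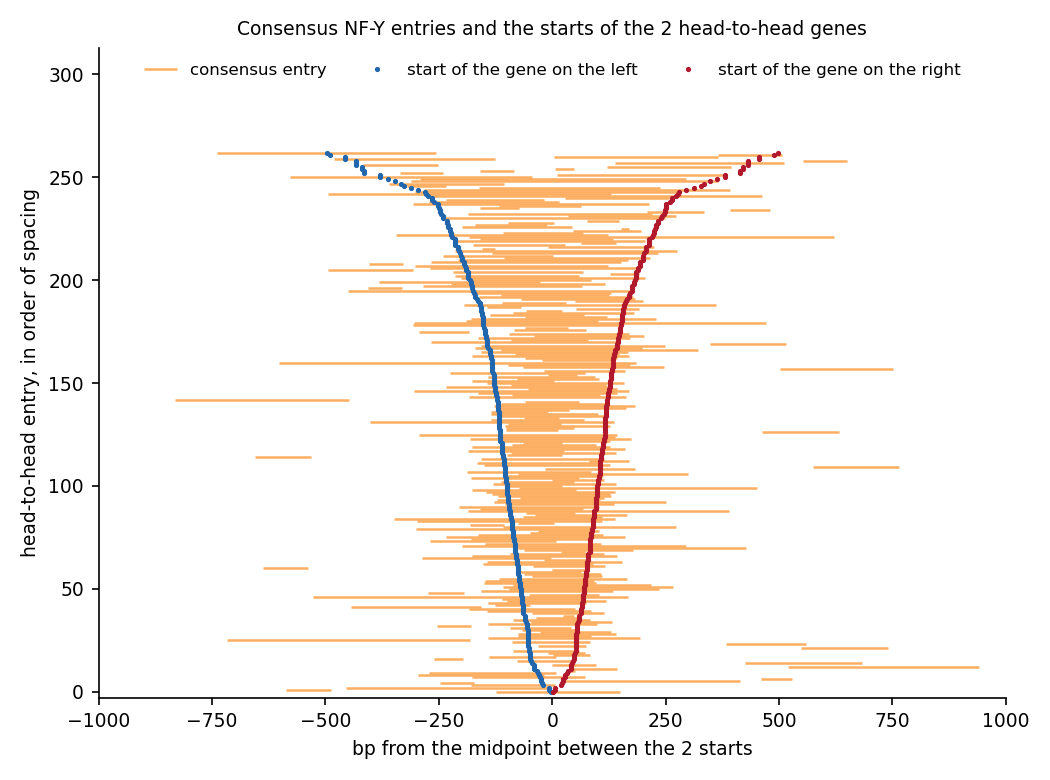
Head-to-head members with spacing up to 1000 bp and non-overlapping genes, 1 line each, ordered by spacing (vertical axis), with the entry (bar) and both gene starts (dots) drawn in bp from the midpoint between the starts (horizontal axis). Most bars lie across the gap between the dots, and a few stand wholly outside it.

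Most head-to-tail members stood at the start of one gene and away from the end of the other. Of 66 whose genes do not overlap, 58 were centred nearer to the 5′ end, at a median of 139.2 bp from it and 580.5 bp from the neighbour's 3′ end. MANF, a secreted protein of the endoplasmic reticulum stress response, had an entry centred 117 bp from its start and 976 bp from the 3′ end of DOCK3. SREBF2, the main transcription factor of cholesterol synthesis, had one 156 bp from its start and 785 bp from the 3′ end of CCDC134. MAML1, a co-activator of Notch signalling, had one 117 bp from its start and 1064 bp from the 3′ end of CANX, the lectin chaperone calnexin, which is a member by that end alone. These 3 entries had a peak in all 6 lists.

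The letters CCAAT, searched on both strands with overlaps allowed, were counted in RefSeq's promoter sequences, which run from 250 bp before to 50 bp after a start. A box was present in 36.8% (36.0 to 37.5%) of 14568 protein-coding promoters and in 79.9% (76.8 to 82.8%) of the 707 promoters whose start is a nearest end of a member. For comparison, it was present in 83.9% (81.8 to 85.7%) of the 1387 promoters at an entry with a single gene. Taking the 1 or 2 promoters of a member together, 421 of 492 members had a box, 85.6% (82.1 to 88.6%), and 268 had 2 or more. The intervals of the paired and the single-gene promoters overlap.

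The number of boxes graded the head-to-head pairs. Of 723 non-overlapping pairs with both promoter sequences, 362 had no box in either, and 17 of these, 4.70% (2.76 to 7.41%), had a consensus entry. The share was 33.9% (27.2 to 41.1%) of 189 pairs with 1 box, 63.8% (52.2 to 74.2%) of 80 pairs with 2 boxes and 89.1% (80.9 to 94.7%) of 92 pairs with 3 or more. Closely spaced pairs had fewer boxes, since 31.5% of the 178 pairs up to 100 bp apart had one, against 62.2% of the 156 pairs at 201 to 300 bp. Among pairs that had a box, an entry was present in 23.2% (13.0 to 36.4%) up to 100 bp, 58.5% (48.5 to 68.0%) at 101 to 200 bp and 62.9% (52.5 to 72.5%) at 201 to 300 bp.

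Boxes stood between the starts. In the 241 head-to-head members with both promoter sequences whose genes do not overlap, 510 of 557 boxes lay between the 2 starts, 91.6% (88.9 to 93.7%), and the windows reach 250 bp upstream but 50 bp downstream, which favours this. Between the starts, 33 members had 0 boxes, 70 had 1, 52 had 2 and 86 had 3 or more. Each box there is upstream of both genes at once. Where it was the only one, it lay a median of 54 bp from the nearer start and 139 bp from the farther start, and it read CCAAT toward the nearer start in 30 of 70 cases, 42.9% (31.1 to 55.3%). Over all genes of head-to-head members the median distance of a box upstream of the start was 99 bp, with 49.8% (46.3 to 53.3%) in the sense orientation. Promoters at single-gene entries had a median of 91.5 bp and 54.2% (52.2 to 56.3%) in sense.

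Peak centres lay close to boxes in all 6 lists. Peaks were counted once for each member they overlap, where they were centred in a promoter window of a member with a box. Of these, 60.3% with sgCCAAT2a, 69.9% with sgCCAAT2b, 52.7% with sgCtrl1, 48.6% with sgCtrl2, 55.6% for RH4 NFYB and 58.9% for RH4 NFYC were centred within 25 bp of one. Between 26.6 and 29.8% of all bases in the same windows are that close to a box. The median distances ran from 12 bp with sgCCAAT2b to 27 bp with sgCtrl2.

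**Figure D3:**
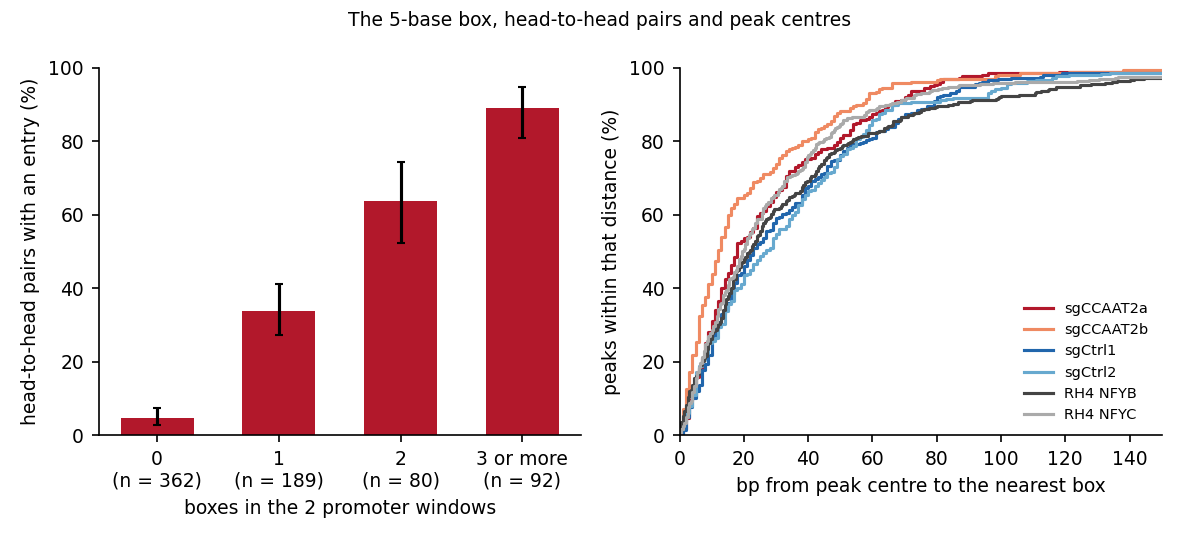
Left, the share of head-to-head pairs with a consensus entry in percent (vertical axis) by the number of boxes in both promoter windows (horizontal axis), with exact 95% intervals, from 4.70% with 0 boxes to 89.1% with 3 or more. Right, the percent of members' peaks (vertical axis) whose centre lies within a given bp of the nearest box (horizontal axis), 1 line per list, with sgCCAAT2b uppermost.

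Histone genes with an entry were nearly all at paired sites. Of 69 replication-dependent histone genes, 23 had a consensus entry and 22 of those were members, against 999 of 2680 genes with an entry over the genome, 37.3% (35.4 to 39.1%). All 11 divergent pairs of H2A and H2B genes of known strand, with starts 194 to 248 bp apart, held 3 to 5 boxes. An entry was present at 7 of them: H2AC15/H2BC15 with a peak in 5 lists, H2AC25/H2BC26 with the RH4 peaks only, and H2AC7/H2BC7, H2BC8/H2AC8, H2BC21/H2AC20, H2AC17/H2BC17 and H2BC4/H2AC6 with a peak in all 6. Their entries were centred close to the middle, as at H2BC21/H2AC20, 114 and 122 bp from the starts, and H2AC17/H2BC17, 114 and 126 bp. H2BC11/H2AC11, with 4 boxes, had a peak in all 4 RH30 lists and in neither RH4 list. H2AC1/H2BC1, H2BC13/H2AC13 and H2AC14/H2BC14 had a peak in no list, with 3, 4 and 5 boxes. Histone genes have near-identical copies, and the sources used here do not say how reads that fit several of them were aligned.

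Other groups of housekeeping genes contributed a handful of members each, beside 4.99% of all protein-coding genes. Among genes with an entry, the share at paired sites ran from 13.3% (1.66 to 40.5%) for mitosis to 58.3% (27.7 to 84.8%) for mitochondrial ribosomal proteins. The interval of each of these groups holds the 37.3% of all genes with an entry. DNA repair had 6 of 25 genes at paired sites, among them ATM, the damage kinase, with NPAT, a regulator of histone gene transcription. Their starts are 429 bp apart, the entry was centred 202.5 and 226.5 bp from them, and all 6 lists had a peak. Endoplasmic reticulum folding genes had 5 of 20, with CRELD2, DNAJB11 and MANF in all 6 lists and DNAJB9, a chaperone cofactor, in 5. Cholesterol and fatty acid synthesis had 3 of 20, FDPS with PKLR, MVK with MMAB, and SREBF2, each in all 6 lists.

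Aminoacyl-tRNA synthetases had 4 of 22 genes at paired sites: SARS2 and WARS1 in all 6 lists, AARS1 in 5, and YARS1 in the RH4 lists only. Mitochondrial ribosomal proteins had 7 of 77, 9.09% (3.73 to 17.8%), and cytosolic ribosomal proteins 4 of 89, 4.49% (1.24 to 11.1%), both with intervals that hold the 4.99% of all genes. The cytosolic ones included RPL36AL with the glycosyltransferase gene MGAT2 in all 6 lists. DNA replication had 3 of 25: MCM7, a subunit of the replicative helicase, in 6 lists, PCNA, the sliding clamp, in 5, and ORC3 in 4. Mitosis genes had 2 of 20, AURKA and KIF20A, a kinase and a kinesin, although 15 of the 20 had a consensus entry. Mitochondrial import had 2 of 20, and liver and blood markers 0 of 10 (0 to 30.8%) and 0 of 12 (0 to 26.5%). The 4.99% also lay within the intervals of DNA replication, 2.55 to 31.2%, and of mitosis and mitochondrial import, 1.23 to 31.7% each. The interval of cholesterol and fatty acid synthesis, 3.21 to 37.9%, holds it too. Those of DNA repair, 9.36 to 45.1%, endoplasmic reticulum folding, 8.66 to 49.1%, and aminoacyl-tRNA synthetases, 5.19 to 40.3%, lay above it.

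Of 20 textbook pairs of neighbouring genes, 6 were members. Among them, ATM/NPAT, MRPS12/SARS2, H2AC6/H2BC4 and H2AC20/H2BC21 had a peak in all 6 lists, and APEX1/OSGEP, a DNA repair endonuclease and a tRNA modification enzyme, had one in 5. Another entry at APEX1/OSGEP had the RH4 peaks only. The other 14 pairs had no consensus entry. PSENEN/U2AF1L4, with starts 233 bp apart, had a peak with sgCtrl2 and RH4 NFYC only. None of the 6 lists had a peak within the windows of both genes at the other 13, which include HSPD1/HSPE1, SURF1/SURF2, COL4A1/COL4A2, FEN1/TMEM258, TAP1/PSMB9 and HARS1/HARS2. Also among the 13 are PPAT/PAICS, H2AC4/H2BC3 and UNG/ALKBH2. By the RefSeq gene spans used here, the nearest ends lie 17145, 9609 and 4125 bp apart, and at PPAT/PAICS they are not 2 starts. The windows of both genes do not meet at such distances, so these pairs could not be members.

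The members were then followed into RH30. A peak overlapped 278 of the 557 in all 4 RH30 lists, 49.9% (45.7 to 54.1%), while 72 had one in 3 of the lists, 64 in 2, 38 in 1 and 105 in none, 18.9% (15.7 to 22.4%). Over all 3073 entries the shares in all 4 and in none were close to these, 46.8 and 16.6%. By library, 60.3% (56.1 to 64.4%) had a peak with sgCCAAT2a, 62.8% (58.7 to 66.9%) with sgCCAAT2b, 72.4% (68.4 to 76.0%) with sgCtrl1 and 72.7% (68.8 to 76.4%) with sgCtrl2. The shares over all 3073 entries were 56.6, 58.7, 72.5 and 73.9%. For entries at a single gene they were 56.2, 57.8, 74.1 and 76.6%. The edited lists held fewer members than the controls, as they did of every class. The edited libraries had more tags and a smaller share of tags in peaks. Their peaks were also narrower, with a median of 153 and 163 bp against 189 and 197 bp in the controls. A wider peak overlaps an entry more readily, and the part of these differences in the result was not tested.

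**Figure D4:**
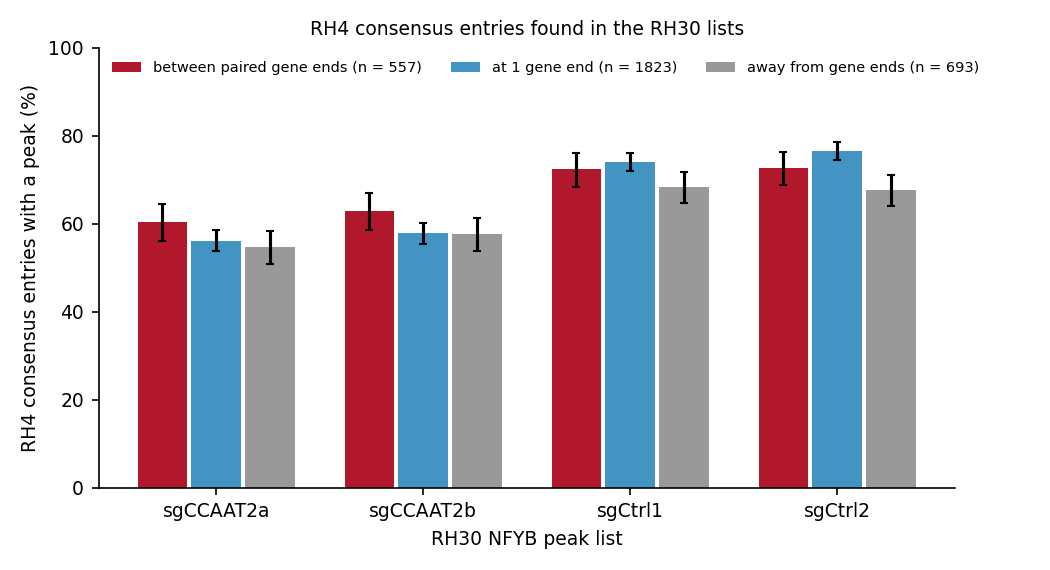
Percent of RH4 consensus entries with a peak (vertical axis) in each RH30 NFYB list (horizontal axis), for paired sites, sites at a single gene and sites away from gene ends, with exact 95% intervals. Paired sites stand at 60.3 and 62.8% in the edited lists and at 72.4 and 72.7% in the control lists.

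Members that RH30 lacked were narrower, and fewer of them had a box. The 105 members with a peak in no RH30 list had a median width of 103 bp, against 292.5 bp for the 278 in all 4. Entries at a single gene went the same way, at 122.5 bp against 276 bp. The width of an entry is the stretch that the RH4 NFYB and NFYC peaks share, and its part in the result was not tested. In the promoter windows, whatever the width of the entry, a box was present at 71 of 97, 73.2% (63.2 to 81.7%), of the members in no RH30 list and at 227 of 249, 91.2% (86.9 to 94.4%), of those in all 4. Of entries lying wholly in promoter windows, a box was inside 25 of 43, 58.1% (42.1 to 73.0%), of those in no RH30 list and inside 94 of 95, 98.9% (94.3 to 100%), of those in all 4. At least 2 boxes were inside 11.6% (3.89 to 25.1%) and 71.6% (61.4 to 80.4%) of them. The widest members absent from RH30 included LENG1/TMC4, with 449 bp and 4 boxes, and H2AC25/H2BC26, with 356 bp and 3 boxes. LONP1, the mitochondrial matrix protease, with CATSPERD, and RPLP2, a ribosomal stalk protein, with PIDD1, were RH4-only too.

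At the other end, the widest members were present in all 6 lists. PEG3/ZIM2, an imprinted pair that shares a start, had an entry of 969 bp. TBC1D10B/MYL11 had one of 805 bp with 6 boxes in its promoter windows, ZRANB3/R3HDM1 one of 789 bp, and SHC1/CKS1B, an adaptor gene and a cyclin-dependent kinase subunit, one of 776 bp with 5 boxes.

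To compare edited with control cells, members with a peak in both control lists were taken, 363 in all. Of these 278 had a peak in both edited lists, 76.6% (71.9 to 80.8%), 35 in 1, and 50 in neither, 13.8% (10.4 to 17.8%). Over all entries in both controls, 71.7% were in both edited lists and 16.8% in neither. The values for entries at a single gene were 69.2% (66.6 to 71.8%) and 17.9% (15.8 to 20.2%). Away from gene ends they were 74.9% (70.4 to 79.1%) and 15.9% (12.5 to 19.8%). Among members in neither control, 7 of 112 had a peak in an edited list, 6.25% (2.55 to 12.5%), beside 12.1% of 580 such entries in all and 12.4% (8.95 to 16.5%) of 315 at a single gene. The 2 controls shared 363 of the 403 members with sgCtrl1 and of the 405 with sgCtrl2, 90.1 and 89.6%.

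In the authors' deposited table of peaks higher in sgCtrl2 than in sgCCAAT2a, at a fold of at least 2.5 and a Poisson p under 0.001, the sgCtrl2 peak of 147 of 405 members was listed, 36.3% (31.6 to 41.2%), beside 43.7% of all entries with an sgCtrl2 peak. The authors' deposited table against sgCCAAT2b listed 112, 27.7% (23.4 to 32.3%), beside 34.8%. The authors' deposited table against sgCtrl1 listed 4, 0.988% (0.270 to 2.51%), beside 1.32%. Among these 4, and named after their values were seen, were SEZ6L2/ASPHD1, H1-4/H2BC5 and H2AC7/H2BC7. The 3 tables share sgCtrl2. In all they hold 4136 entries against sgCCAAT2a, 4057 against sgCCAAT2b and 2422 against sgCtrl1, beside 6687 sgCtrl2 peaks. The low share against sgCtrl1 thus holds for consensus entries and not for the whole sgCtrl2 list. In the same order of tables the shares at a single gene were 48.4, 38.3 and 1.22%. Away from gene ends they were 36.0, 30.5 and 1.92%, the first 2 nearer to those of the members.

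The place of a peak is its position in the file's order. What that order stands for is not stated, and places in lists of different lengths are not compared. The place of the peak moved with these shares. Members in both controls and neither edited list had a median place of 1844 in the sgCtrl2 list, against 712.5 for those in both edited lists, and a median width of 185.5 bp against 292.5 bp. Entries at a single gene went the same way, with places of 1768.5 against 825 and widths of 166 bp against 276 bp. Paired sites as a whole stood earlier in that list, at a median of 1016, than sites at a single gene, at 1168. Within places 1 to 500 of the sgCtrl2 list, 96.4% of 111 paired sites and 96.4% of 278 single-gene sites had a peak in both edited lists. Within places 501 to 1000 the shares were 84.8 and 81.7%, within 1001 to 2000 they were 59.8 and 56.4%, and beyond 2000 they were 60.7% (47.3 to 72.9%) and 42.6% (35.5 to 49.8%). The intervals of both classes overlapped in each of these 4 ranges. Depth differed between the guides as given above.

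**Figure D5:**
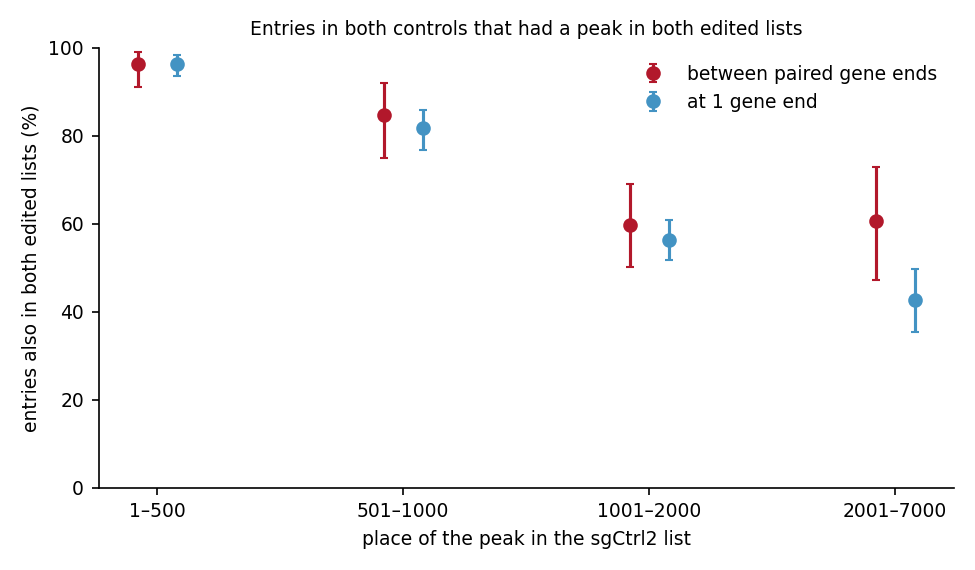
Of entries with a peak in both control lists, the percent that also had one in both edited lists (vertical axis) by the place of the peak in the sgCtrl2 list (horizontal axis), for paired sites and sites at a single gene, with exact 95% intervals. Both classes start at 96.4% in the first 500 places and lie lower beyond place 1000.

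Members in both controls and neither edited list, read in the order of the sgCtrl2 list, began with DTYMK/ING5, thymidylate kinase and a chromatin reader subunit, at place 566 with sgCtrl2 and 1182 with sgCtrl1. Next were GPD1/COX14 at places 641 and 1207 and SDF4/B3GALT6 at places 873 and 1505. They were followed by TMEM91/B9D2, RRP9/PARP3, RRAS/SCAF1, CNN2/ABCA7, KIAA0319L/NCDN, FHIP1B/CNGA4 and WDR4/NDUFV3, at places 1014 to 1359. Of these 10 pairs, 6 were head to head and 1 was head to tail, with ends 138 to 1042 bp apart. All but RRAS/SCAF1 were in the authors' deposited table against sgCCAAT2a. A box was in the promoter windows of 35 of 40 members in both controls and neither edited list, 87.5% (73.2 to 95.8%), against 91.2% (86.9 to 94.4%) of those in both edited lists, and these intervals overlap. Inside the entries that lie wholly in promoter windows, which are narrower as given above, the share with a box was 22 of 26, 84.6% (65.1 to 95.6%), against 98.9% (94.3 to 100%), and that with 2 or more was 30.8% (14.3 to 51.8%), against 71.6% (61.4 to 80.4%).

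Some members stayed in all 4 lists and were listed as lower in edited cells. ALG12/CRELD2 stood at places 231 with sgCCAAT2a, 233 with sgCCAAT2b, 150 with sgCtrl1 and 85 with sgCtrl2. Places here and below come from lists of different lengths, so they do not measure a loss of signal. The sgCtrl2 peak of ALG12/CRELD2 was in the authors' deposited tables against both edited libraries. So were those of AP4M1/MCM7 and WARS1/WDR25, also present in all 4 lists. Members with the same presence that none of the authors' deposited tables listed included SARS2/MRPS12, at places 276, 219, 225 and 226 in the same order of guides, and 4 of the histone pairs, H2BC4/H2AC6, H2BC8/H2AC8, H2AC17/H2BC17 and H2BC21/H2AC20.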

How the data were processed

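NF-Y peak positions from 6 CUT&RUN libraries, the RH4 consensus list and 3 differential tables were used, 10 files in all, without the 2 IgG libraries. The authors deposited positions (hg38) with a constant score of 1, so peaks could not be ranked by height. Per the file headers, HOMER called the RH30 peaks library by library against 1 input that the headers do not tie to a library, and its differential peak tool, with a Poisson test, chose the sgCtrl2 peaks in the differential tables. The sources used here do not name the tool that called the RH4 peaks. HOMER, MACS2, Bowtie2, bedtools, deepTools, Trimmomatic and FastQC stand in the submitters' processing notes, with no versions.

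Gene ends, promoters and strand came from RefSeq tables for GRCh38.p14; strand was known for 15842 of 20037 protein-coding genes, and promoter sequences starting within 1000 bp of the gene's 5′ end for 14568. Peaks were shared at an overlap of at least 1 bp. Scripts ran in Python 3.11.15 with scipy 1.17.1. The overlap and pairing code gave the same answer as bedtools 2.31.1 for 30000 of 30000 simulated entries. With 1 library per group, no p-value between conditions was computed.

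The members and lists were chosen with earlier results of these data known. Named pairs were the 12 head-to-head members in all 6 lists with the shortest spacing, textbook pairs, up to 10 members in both controls and neither edited list, up to 10 in no RH30 list, the 6 with most genes, the 8 widest and at most 4 of each gene list, of which the text takes examples. The pairs whose sequence is printed were picked after their values were seen. Alternatives were other windows, an overlap of 50%, the entry's centre, wider entries, the first part of each RH30 list, 5′ ends only, no overlapping genes and, chosen after seeing the data, each control alone and counting by gene pair. A few pairs that these rules cover are not reported here.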

Additional observations from a re-analysis of the deposited data

How the results depend on the processing

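Of 110 alternative values for 14 results, 75 stayed within the interval of the reported value (for counts, within 1.5 times) and 35 did not. Keeping the consensus entries wider than the median left 308 members, and 5′ ends only left 357. The median spacing became 244 bp with windows of 500 bp, 414 bp with 3000 bp, 317 bp for the wider entries and 240 bp for 5′ ends, which follows from the window for the first 2. The share of members with 2 starts was 89.7% with windows of 500 bp and 68.5% with 3000 bp. Members with a peak in sgCCAAT2a, sgCCAAT2b, sgCtrl1 and sgCtrl2 came to 32.3, 36.8, 50.1 and 49.2% at an overlap of 50% of both, to 81.2, 84.1, 89.6 and 87.0% for the wider entries, to 65.6, 68.4, 78.1 and 79.4% counted by gene pair, and to 42.0, 46.0 and 63.6% in the first 3 with the first part of each list, up to its middle. Of members in both controls, those in both edited lists came to 55.6% at the 50% overlap, 84.0% for wider entries, 60.1% with the first part of each list and 70.9% with sgCtrl2 as the sole control. Those in neither came to 32.3, 7.03, 28.7 and 19.0% under the same 4 settings. At the 50% overlap the order of the classes turned for the share in neither, 32.3% of paired sites and 28.2% of single-gene sites. It also turned for the share with a peak in sgCCAAT2a, 32.3 and 33.5%, and in sgCCAAT2b, 36.8 and 39.3%. The share in both edited lists kept its order, 55.6 and 52.2%. An entry that is wide beside a peak cannot share 50% of itself with it, and the edited lists have the narrower peaks. Paired entries had an upper quartile of width of 331 bp and single-gene entries one of 300 bp. The part of these widths in the turned order was not tested. Neither this setting nor the main one tells whether binding differed between the classes. None of the wider entries, 0%, was in the authors' deposited table against sgCtrl1. Head-to-head pairs with an entry came to 16.9% for the wider entries, and members with a box to 89.9% both for the wider entries and for 5′ ends. The cause was not tested.

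No paired analysis was possible because each guide and antibody has 1 library and the labels give no replicate numbers. Strand was missing for 129 members, and depth for the RH4 libraries.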

Other observations

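Neighbouring boxes in members' promoter windows stood a median of 49 bp apart, with 20.5% (17.2 to 24.1%) of 546 neighbours 27 to 37 bp apart. The values were 42 bp and 25.6% (23.0 to 28.2%) of 1103 at entries with a single gene, and 45 bp and 21.1% over all protein-coding promoters.

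RH30 lists also held peaks at paired gene ends that no RH4 consensus entry overlaps: 21 of 351 with sgCCAAT2a, 30 of 375 with sgCCAAT2b, 74 of 468 with sgCtrl1 and 197 of 585 with sgCtrl2. The longest list, sgCtrl2, had the highest share of these, 33.7% (29.9 to 37.7%). Peaks at paired gene ends made up 14.3% of all peaks with sgCCAAT2a, 14.7% with sgCCAAT2b, 11.6% with sgCtrl1 and 8.75% with sgCtrl2.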
